A study of Mus musculus with 14 samples.

Results

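The fast transient outward potassium current of heart muscle is carried by channels of the Kv4 family, and 7 genes for its parts were followed here: the pore subunit genes Kcnd1, Kcnd2 and Kcnd3 and the KChIP genes Kcnip1, Kcnip2, Kcnip3 and Kcnip4. They were taken as whole gene families, with no measured value in the rule, and make up 7 of the 19931 named genes measured. Each was read by 1 probe set of an Affymetrix mouse gene array. The samples were hearts of mouse embryos at E12.5 (the embryonic day), 1 array per sample and 14 arrays in all. The reference group of 3 arrays was Irx5+/-. Irx3-/-;Irx5+/- was measured on 4 arrays and Irx5-/- on 3, and another 4 arrays held Irx3-/-;Irx5-/- hearts, called double mutants. Irx3 and Irx5 encode Iroquois homeodomain transcription factors. Every group, the reference included, lacked at least 1 working copy of Irx5, so no comparison is with wild-type hearts. The sources used here do not give how the alleles were made, the strain, or whether each array holds 1 embryo. The p-values therefore measure the spread between arrays, part of which may be technical.

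Kv4 channels open quickly when a muscle cell or neuron depolarizes and inactivate soon after, and the outward current they pass shapes the early repolarization of the action potential. KChIPs are small calcium-binding proteins that attach to the channel, raise its density at the cell surface and slow its inactivation. In adult mouse ventricle the current is stronger in the outer than in the inner wall, Kcnd2 transcript follows that gradient, and Irx5 is known as a repressor of Kcnd2 there. The hearts measured here are embryonic and whole, so they say nothing of that gradient across the wall.

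Iroquois proteins bind DNA, and the short sequence ACANNTGT is known as a target of this family. The stretches before the transcription start of Kcnd2 and Kcnd3, which encode the main pore subunits of the current in rodent ventricle, and of Kcnip2, its main cardiac KChIP gene, are shown because these are the genes in which an Iroquois effect on the current would first be sought. All are RefSeq sequences of mouse build GRCm38.p6, written 5′ to 3′ on the strand of the gene. The Kcnd2 stretch is chr6:21215096-21215345 on the plus strand, the Kcnd3 stretch is chr3:105451640-105451889 on the plus strand, and the Kcnip2 stretch is chr19:45816064-45816313 on the minus strand.
Kcnd2: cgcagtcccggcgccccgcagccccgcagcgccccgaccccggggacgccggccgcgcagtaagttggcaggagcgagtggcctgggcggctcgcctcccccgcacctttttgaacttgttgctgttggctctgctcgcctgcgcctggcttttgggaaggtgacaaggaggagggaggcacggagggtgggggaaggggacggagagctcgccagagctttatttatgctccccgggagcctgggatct
Kcnd3: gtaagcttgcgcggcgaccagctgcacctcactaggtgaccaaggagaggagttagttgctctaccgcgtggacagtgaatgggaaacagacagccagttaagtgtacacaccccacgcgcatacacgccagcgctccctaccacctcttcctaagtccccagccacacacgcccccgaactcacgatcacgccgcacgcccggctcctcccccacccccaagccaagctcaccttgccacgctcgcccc
Kcnip2: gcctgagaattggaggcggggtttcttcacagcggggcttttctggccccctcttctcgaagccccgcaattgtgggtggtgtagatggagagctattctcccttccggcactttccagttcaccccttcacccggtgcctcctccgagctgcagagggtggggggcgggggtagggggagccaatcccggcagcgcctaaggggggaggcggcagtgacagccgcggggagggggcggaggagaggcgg
None of these 3 holds ACANNTGT, a sequence that is its own reverse complement and so reads alike on both strands. Their GC content was 68.8% for Kcnd2, 62.8% for Kcnd3 and 66.8% for Kcnip2, against a median of 52.4% over all windows of the table. The motif was searched in windows of 300 bases, 250 before and 50 after each annotated start. It occurred in 3 of the 11 windows of 6 of the genes, and in 7.38% of all 32851 windows. The table had no window for Kcnd1. The following 60-base stretches of Kcnip1 (chr11:33843836-33843895, minus strand) and Kcnip4 (chr5:48599819-48599878, minus strand) hold it, in capitals.
Kcnip1: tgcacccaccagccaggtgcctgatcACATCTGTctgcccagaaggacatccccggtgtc
Kcnip4: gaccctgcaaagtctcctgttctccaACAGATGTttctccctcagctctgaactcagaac
In Kcnip1 the match was in 1 of 3 windows, and in Kcnip4 both of 2 windows had one. A match of letters is a description and not a binding site, and its absence from these windows says nothing of binding.

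The arrays were first checked against their labels. The Irx3 signal lay at 8.43 to 8.53 (log2 intensity) in the reference, 7.87 to 8.17 in Irx3-/-;Irx5+/- hearts, 8.14 to 8.25 in Irx5-/- hearts and 7.60 to 7.86 in double mutants, where it fell by 0.74 ± 0.10 (SE, adjusted p = 0.0201 in limma). That call was lost in 4 of 7 fits with 1 array left out, without reference replicate 2 or 3 or double mutant replicate 3 or 4 (adjusted p = 0.0616 to 0.0986). The Irx5 signal overlapped between all groups, at 8.19 to 8.41, 8.21 to 8.31, 7.86 to 8.34 and 7.52 to 8.43 in the same order, so it does not check the Irx5 labels. Neither probe set could be placed relative to the parts changed in the mutant alleles, so a signal from outside them would check nothing. Replicate 4 of the group titled Irx3-/-;Irx5+/- is described elsewhere in its labels as Irx5-/-. Its Irx3 signal was 8.17, within the range of Irx5-/- hearts. It was kept by title and genotype field. Values of all genes in the Irx3-/-;Irx5+/- and Irx5-/- groups depend on this choice, and those of Kcnd3 alone are also given with it as Irx5-/-.

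Heart markers were present, and the marker levels of several cell types were uneven between arrays. All 18 sarcomere markers had mean signals of 9.18 to 13.6, and all 12 endothelial and endocardial markers passed the 95th percentile of olfactory receptor genes, used as a reference for genes with no known role in heart muscle. The mean of the sarcomere markers, relative to all arrays, was 0.14, -0.63 and -1.67 in reference replicates 1, 2 and 3. It ran from -0.44 to 0.40 in Irx3-/-;Irx5+/- hearts, from -0.27 to 0.76 in Irx5-/- hearts and from 0.17 to 0.65 in double mutants. Endothelial markers averaged 0.34 to 0.63 in the reference and 0.06 to 0.55 in Irx3-/-;Irx5+/- hearts, but -0.51 to -0.18 in Irx5-/- hearts and -0.86 to 0.19 in double mutants. Erythroid markers (4 of 5 measured) averaged -0.64 to -0.51, -0.49 to 1.27, -0.85 to -0.40 and -0.80 to 1.90, in the order of the groups given. Epicardial markers (6 of 6) averaged -0.39 to 0.21, -0.60 to 0.17, -1.36 to 0.80 and -0.73 to 1.35. The part of either in the channel gene values was not tested. In such whole-heart RNA, fewer cells of a type and less RNA per cell cannot be told apart.

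No Kv4 or KChIP gene changed past the threshold, an adjusted p under 0.05 in limma, in any comparison of genotypes. That was 0 of 7 in each, while over all genes the share called was 0% for Irx3-/-;Irx5+/- against the reference, 0% for Irx5-/- against the reference and 0.0201% for double mutants against the reference. It was 0.00502% for double mutants against Irx3-/-;Irx5+/-, 0% for double mutants against Irx5-/- and 0% for Irx5-/- against Irx3-/-;Irx5+/-. A test of any difference among the 4 groups also called 0 of 7, beside 0.00502% of all genes, and the lowest adjusted p among the 7 was 0.551 for Kcnd1 (limma). At an unadjusted p under 0.05 the counts over the 3 comparisons with the reference were 0, 1 and 2 of 7, in the order given, where 5.07%, 10.6% and 13.5% of all genes passed. The data are therefore described below by their values and intervals. A p above the threshold does not show that levels were equal.

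**Figure D1:**
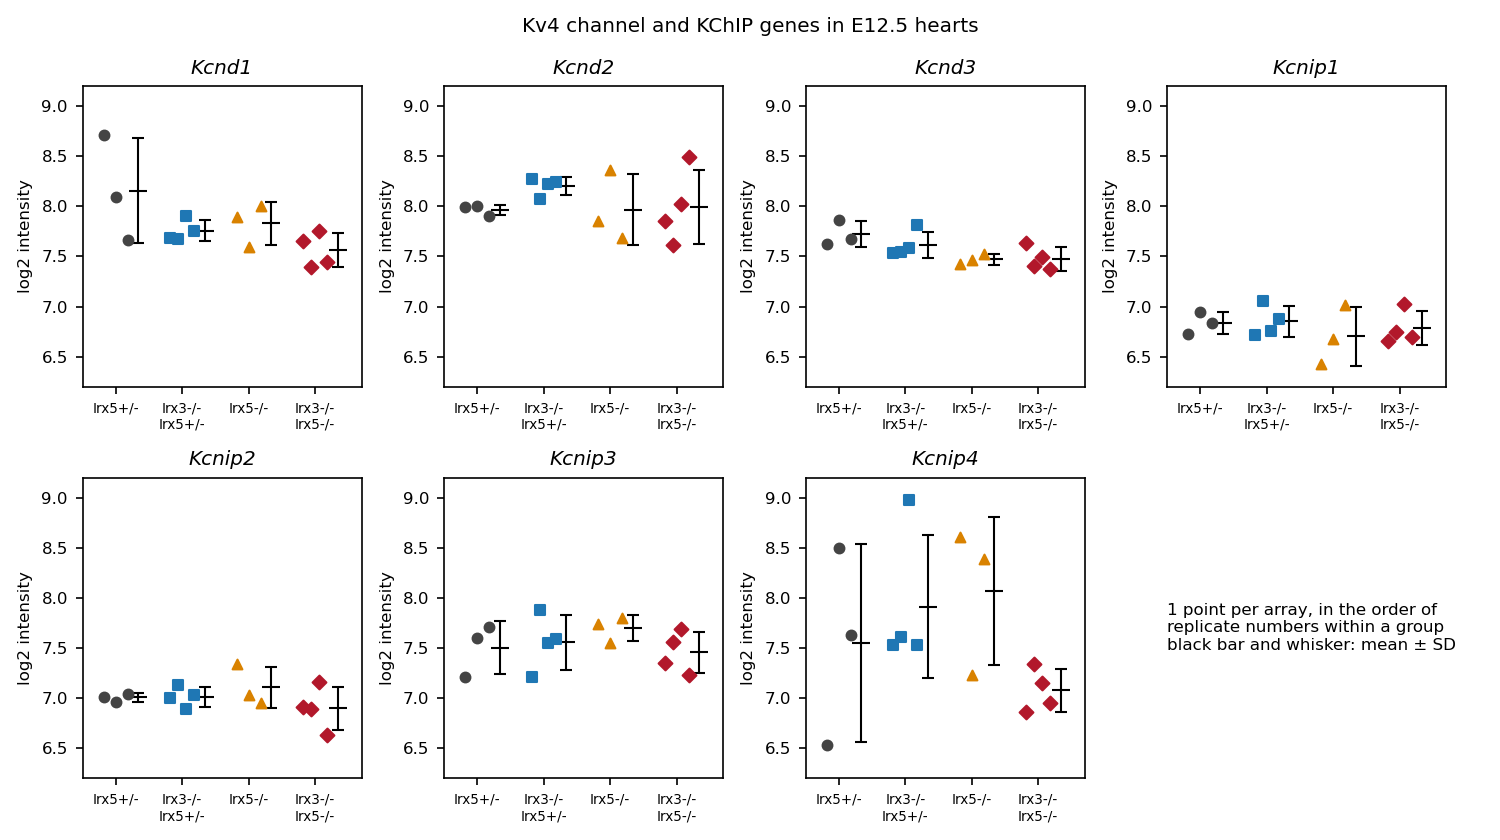
Log2 intensity of each of the 7 genes (vertical axis) in every array of the 4 genotype groups (horizontal axis), with points for arrays and bars for group means. Kcnip4 had the widest spread, from 6.53 to 8.98, and Kcnd3 the narrowest, from 7.37 to 7.87.

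Kcnd2, the Kv4 gene that Irx5 represses in adult ventricle, had nearly the same mean in hearts without Irx5 as in the reference. Its signal was 7.99, 8.003 and 7.91 in the reference replicates. It read 7.86, 8.36 and 7.68 in Irx5-/- hearts, so that 1 array was above and 2 were below all of the reference. Double mutants read 7.86, 7.62, 8.02 and 8.49, again on both sides of the reference, with 2 arrays above it and 2 below.

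The mean difference of Kcnd2 from the reference was 0.00 ± 0.20 (log2, SE) in Irx5-/- hearts, with a 95% interval for the fold of 0.744 to 1.34. For double mutants it was 0.03 ± 0.19, with an interval of 0.774 to 1.35. With the sarcomere mean as a term the differences were -0.17 and -0.21. Spread was far larger in both groups without Irx5, with an SD of 0.35 (n = 3) and 0.37 (n = 4), than in the reference, with 0.05 (n = 3); this inequality of spread was not tested. Averaged over both Irx3 backgrounds, loss of Irx5 went with a Kcnd2 difference of -0.10 ± 0.13 and a fold between 0.766 and 1.13 (95% interval). The difference was -0.20 without Irx5-/- replicate 2, -0.03 without replicate 3 and -0.22 with the sarcomere mean as a term. All these intervals use a single spread shared by the groups, and the group spreads were unequal. They therefore set no firm limit on a rise or fall of Kcnd2.

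Irx3-/-;Irx5+/- hearts were the group in which Kcnd2 stood apart, at 8.27, 8.08, 8.22 and 8.24. All 4 arrays lay above all 3 of the reference, as they did for 2.86% of all genes. The difference was 0.24 ± 0.19 (SE, adjusted p = 1.000 in limma), with a 95% interval from -0.16 to 0.64. It was 0.07 with the sarcomere mean as a term in the fit, and 0.21 to 0.28 when single arrays were left out. The SE and interval use a spread shared by all 4 groups. The Kcnd2 SD was 0.05 in the reference and 0.09 in Irx3-/-;Irx5+/- hearts, but 0.35 in Irx5-/- hearts and 0.37 in double mutants.

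Kcnd3, the other ventricular pore subunit gene, was slightly lower in both groups without Irx5, by an amount that did not pass the threshold. The reference read 7.63, 7.87 and 7.67, Irx3-/-;Irx5+/- hearts 7.53, 7.54, 7.58 and 7.81, Irx5-/- hearts 7.42, 7.46 and 7.53, and double mutants 7.63, 7.40, 7.50 and 7.37. The 3 Irx5-/- arrays all lay below all 3 of the reference, as was the case for 9.52% of all genes. They also lay below all 4 Irx3-/-;Irx5+/- arrays, a pattern that 5.43% of genes shared. Of the double mutants, replicate 1 reached the reference range and the others did not.

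The Kcnd3 difference was -0.25 ± 0.11 (SE, adjusted p = 0.444 in limma) in Irx5-/- hearts, a fold of 0.841 with a 95% interval of 0.714 to 0.989. In double mutants it was -0.25 ± 0.10 (adjusted p = 0.316 in limma). Both comparisons use the same 3 reference arrays. Averaged over Irx3 backgrounds, the difference with loss of Irx5 was -0.20 ± 0.07 (adjusted p = 0.235 in limma). Kcnd3 was the 1 member with an unadjusted p under 0.05 in that contrast, and genes lower by that rule made up 7.03% of all genes. With the array of conflicting labels grouped as Irx5-/-, the average became -0.12 (adjusted p = 0.525 in limma), the Irx5-/- difference from the reference -0.17, and that from Irx3-/-;Irx5+/- hearts 0.0049. The endothelial marker mean was lower in the same groups, and its part in the Kcnd3 values was not tested.

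Kcnd1, a Kv4 gene better known from neurons, smooth muscle and other tissues than from ventricle, read lowest in double mutants. Reference replicates 1, 2 and 3 were far apart, at 8.71, 8.09 and 7.67. The other groups were tighter, at 7.69, 7.68, 7.90 and 7.76 in Irx3-/-;Irx5+/- hearts, 7.89, 7.59 and 8.01 in Irx5-/- hearts, and 7.66, 7.39, 7.76 and 7.44 in double mutants. Reference replicate 3 lay within the ranges of Irx5-/- hearts and double mutants and just below that of Irx3-/-;Irx5+/- hearts, and replicates 1 and 2 lay above every array of them.

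In double mutants the Kcnd1 difference from the reference was -0.59 ± 0.19 (SE, adjusted p = 0.216 in limma), a fold of 0.663. Kcnd1 and Kcnd3 were the 2 members lower here at an unadjusted p under 0.05, as were 5.56% of all genes. The value rests on the reference arrays: it was -0.32 without reference replicate 1 and -0.84 without replicate 3, and -0.84 with the sarcomere mean as a term. Differences for Irx3-/-;Irx5+/- hearts (-0.40 ± 0.19, adjusted p = 0.980 in limma) and for Irx5-/- hearts (-0.32 ± 0.21, adjusted p = 0.579) became -0.12 and -0.05 without replicate 1. Averaged over Irx5 backgrounds, loss of Irx3 went with a Kcnd1 difference of -0.33 ± 0.14 (adjusted p = 1.000 in limma), lower at an unadjusted p under 0.05 as 2.55% of all genes were. Without reference replicate 1 it was -0.20.

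Kcnip2, whose protein is the KChIP of adult ventricular muscle, differed little. It read 7.01, 6.96 and 7.05 in the reference and 6.996, 7.13, 6.89 and 7.03 in Irx3-/-;Irx5+/- hearts. Irx5-/- hearts read 7.34, 7.03 and 6.95, and double mutants 6.91, 6.89, 7.16 and 6.63. All groups overlapped, and the differences from the reference were 0.01, 0.10 and -0.11, in the order of the groups given.

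Kcnip1 and Kcnip3 encode KChIPs best known from neurons, and the Kcnip3 protein, also called DREAM or calsenilin, is in addition a calcium-dependent transcriptional repressor. Group means of Kcnip1 lay at 6.83 ± 0.11 (SD, n = 3) in the reference, 6.85 ± 0.15 (n = 4) in Irx3-/-;Irx5+/- hearts, 6.71 ± 0.29 (n = 3) in Irx5-/- hearts and 6.78 ± 0.17 (n = 4) in double mutants. For Kcnip3 they were 7.50 ± 0.26, 7.56 ± 0.27, 7.70 ± 0.13 and 7.46 ± 0.20 in the same order. Differences from the reference were -0.13 to 0.02 for Kcnip1 and -0.05 to 0.19 for Kcnip3, and neither gene had groups that did not overlap.

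Kcnip4, whose protein (also called CALP) includes forms that remove fast inactivation from Kv4 channels, was the most variable of the 7 genes. The reference read 6.53, 8.50 and 7.63, Irx3-/-;Irx5+/- hearts 7.53, 7.61, 8.98 and 7.53, and Irx5-/- hearts 8.60, 7.23 and 8.39. Double mutants read 6.87, 7.34, 7.15 and 6.95, with an SD of 0.22 (n = 4) against 0.71 to 0.99 in the other groups. The 0.71 of Irx3-/-;Irx5+/- hearts comes from the array at 8.98, since the other 3 lay within 7.53 to 7.61, closer together than the double mutants. Every double mutant lay below every Irx3-/-;Irx5+/- array, as was the case for 2.18% of all genes, and replicate 2 overlapped the Irx5-/- range.

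The Kcnip4 difference of double mutants was -0.84 ± 0.42 (SE, adjusted p = 0.663 in limma) from Irx3-/-;Irx5+/- hearts, and -0.48 without Irx3-/-;Irx5+/- replicate 3, which alone read 8.98. From Irx5-/- hearts it was -0.995 ± 0.46 (adjusted p = 1.000 in limma), lower at an unadjusted p under 0.05 as 2.13% of all genes were, and it ran from -1.42 to -0.73 when single arrays were left out. From the reference it was -0.48 ± 0.46, but -0.99 without reference replicate 1, -0.0036 without replicate 2 and 0.46 with the sarcomere mean as a term. The interaction, the Irx3 effect without Irx5 less the Irx3 effect with 1 copy of it, was -1.36 ± 0.64 (adjusted p = 1.000 in limma), and -0.84 without reference replicate 1.

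**Figure D2:**
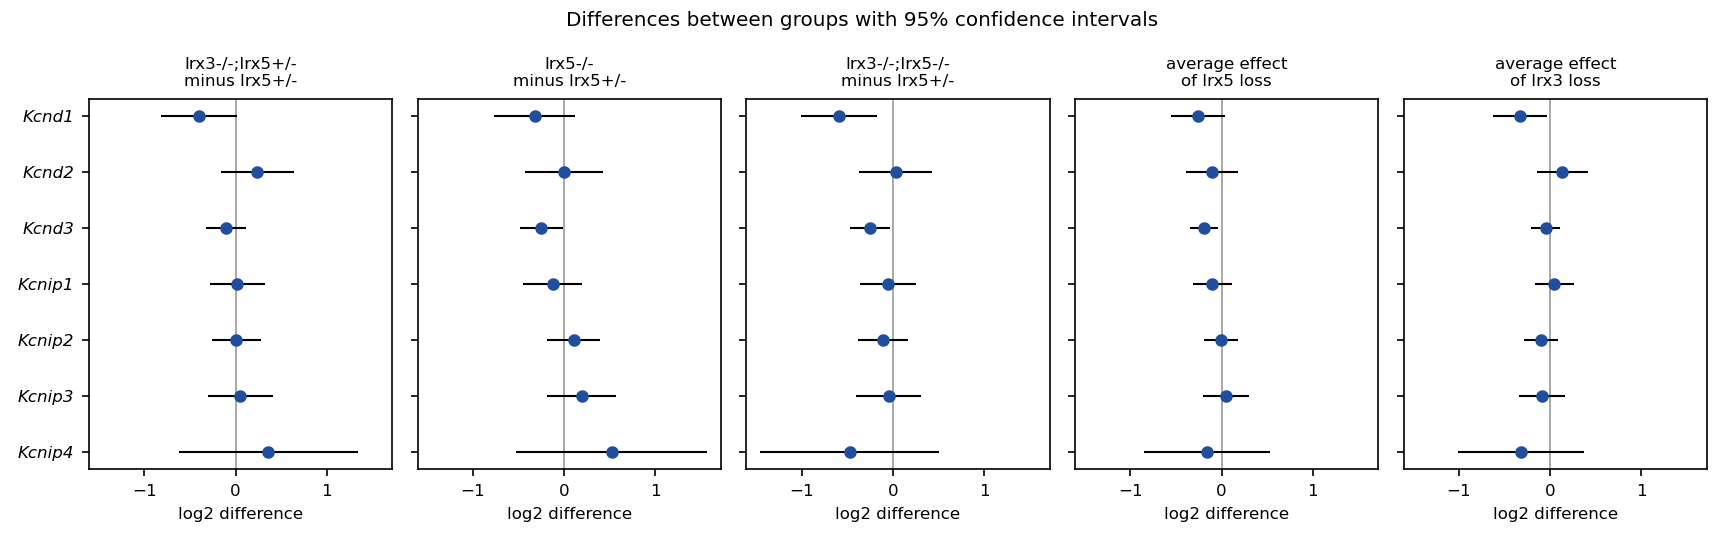
Log2 differences of the 7 genes (horizontal axis) in the comparisons named above each panel, with points for estimates and lines for 95% confidence intervals from limma. The interval of Kcnd2 spans 0 in each panel with loss of Irx5, the intervals of Kcnd3 lie below 0 for both groups without Irx5 against the reference, and those of Kcnip4 are the widest.

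Across the 7 genes, the differences between double mutants and Irx3-/-;Irx5+/- hearts were all below 0, with a median of -0.14 against -0.02 over all genes. Against the reference, double mutants had 6 of 7 below 0 and a median of -0.11 (all genes -0.03). Irx5-/- hearts had 3 of 7 below 0 and a median of 0.00 (all genes -0.03), and Irx3-/-;Irx5+/- hearts 2 of 7 and 0.02 (all genes 0.00). These comparisons share arrays. The all-gene medians were themselves below 0 in all but the last of them, and the share of all genes below 0 was not counted. For the average effect of Irx5 loss 0.0151% of all genes were called, for that of Irx3 loss 0% and for the interaction 0%, and 0 of the 7 genes in each.

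Intensities of different probe sets do not rank abundance, so no level is compared between genes. As a gauge of background, the 1026 olfactory receptor genes had means between 3.71 and 7.57 (5th to 95th percentile). The means of Kcnip1 (6.80), Kcnip2 (6.999), Kcnip3 (7.55) and Kcnd3 (7.568, just under the upper edge of 7.572) lay inside that span. Those of Kcnip4 (7.63), Kcnd1 (7.80) and Kcnd2 (8.04) lay above it. Whether the first group gave signal above background was not tested.

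The 7 genes did not vary as one block over the 14 arrays. The highest of the 21 pairwise correlations were 0.56 for Kcnip2 with Kcnip3 and 0.54 for Kcnip3 with Kcnip4, and the lowest was -0.42 for Kcnd2 with Kcnip3. The ventricular pair Kcnd2 and Kcnd3 had -0.01, and Kcnd1 with Kcnd3 had 0.42. All values share arrays and genotype differences, and are descriptions.

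Genes with the pattern most like each member over the 14 arrays, by Pearson correlation of log2 values, were Zfp609 (0.83), Klhl36 (0.79) and Drc3 (0.76) for Kcnd2. They were Sp9 (0.95), Wnt11 (0.92) and Fbrsl1 (0.91) for Kcnd3, and Tm4sf4 (0.90), D17H6S53E (0.90) and Ldoc1 (0.86) for Kcnd1. For Kcnip1 they were Pde8b (0.96), Asphd1 (0.94) and Pnma5 (0.93), and for Kcnip2 Krt40 (0.82), Tmem74b (0.79) and Slc22a19 (0.79). Kcnip3 ran most like Foxp3 (0.88), Gcc1 (0.87) and Plod1 (0.87), and Kcnip4 most like Kcnmb2 (0.90), Sorcs3 (0.89) and Pde5a (0.87). Each is the top of a search over all genes, so high values arise for any gene.

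The sarcomere marker mean was set beside each gene. Kcnip4 ran lower where the sarcomere mean was higher, with a Pearson r of -0.49 (permutation p = 0.0705, adjusted over the 7 genes 0.374) and a Spearman rho of -0.70 (permutation p = 0.00712, adjusted 0.0498). The 2 statistics were adjusted apart, each over the 7 genes only, and rho was not refitted with single arrays left out. Without the 2 arrays farthest from the median sarcomere mean, reference replicates 2 and 3, r was -0.74, and with group means removed it was -0.66. The Pearson value was weakened by reference replicate 3, which had the least sarcomere signal and a Kcnip4 signal of 7.63. Without it r was -0.77 (permutation p = 0.00213, adjusted 0.0149).

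Kcnd2 had a positive r of 0.35 (permutation p = 0.223, adjusted 0.390) with the sarcomere mean and a rho of 0.46 (permutation p = 0.101, adjusted 0.177). Kcnd3 had an r of -0.45 (permutation p = 0.107, adjusted 0.374), which was -0.18 without the same 2 arrays and -0.06 with group means removed. Its Spearman rho was -0.56 (permutation p = 0.0372, adjusted 0.124). Kcnd1 had an r of -0.19 (permutation p = 0.467, adjusted 0.654), which turned to 0.43 with group means removed. The Spearman rho of Kcnd1 was -0.53 (permutation p = 0.053, adjusted 0.124). The 3 other KChIP genes had r between -0.35 and -0.10. Neuron and glia markers, of which 8 of 11 were measured and 4 of those passed the olfactory receptor 95th percentile, had means from -0.15 to 0.20 over all groups, and their part in the Kcnip values was not tested.

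**Figure D3:**
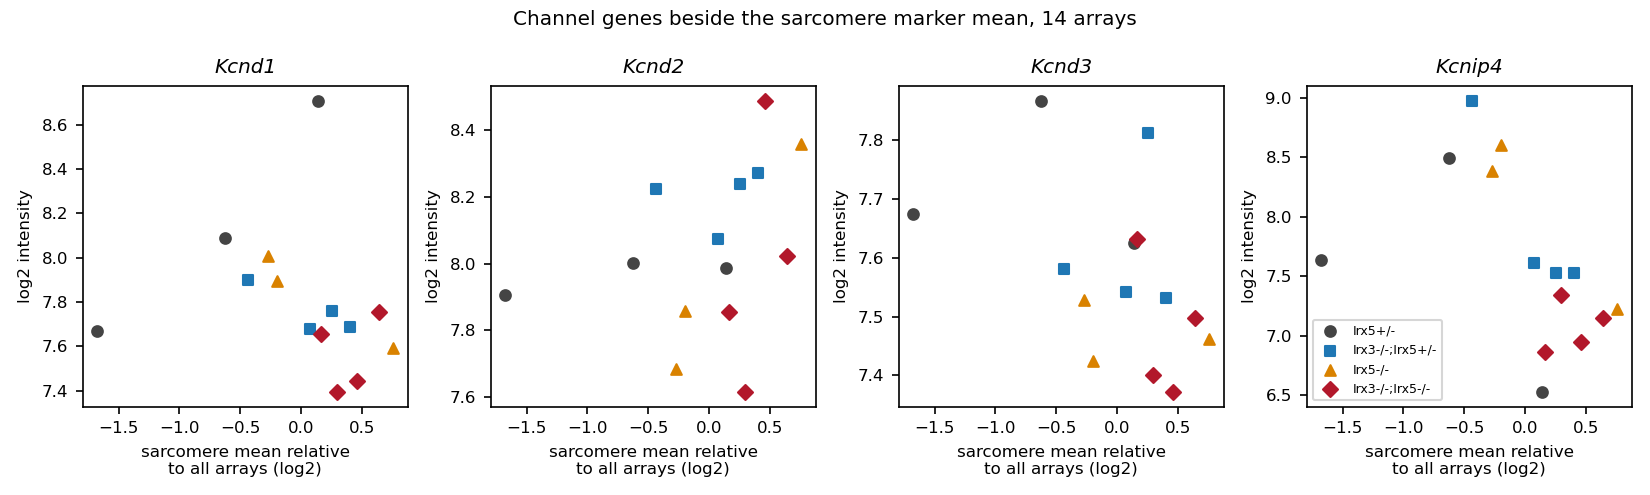
Log2 intensity of Kcnd1, Kcnd2, Kcnd3 and Kcnip4 (vertical axes) against the mean of 18 sarcomere markers relative to all arrays (horizontal axes), 1 point per array, coloured by genotype. Kcnip4 runs downward, with a Spearman rho of -0.70 over the 14 arrays, apart from the reference array at -1.67.

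Partners of the Kv4 complex were read as a list of 15 genes for accessory proteins: DPP-like and KCNE subunits, Kv beta subunits, and anchoring proteins. All 15 were measured and 0 were called in any comparison. At an unadjusted p under 0.05, 0 were higher and 1 lower in Irx3-/-;Irx5+/- hearts against the reference, 0 and 0 in Irx5-/- hearts, and 1 and 0 in double mutants. Between double mutants and Irx3-/-;Irx5+/- hearts 2 were higher, and between double mutants and Irx5-/- hearts 1 was higher. Over all genes the shares higher and lower by that rule were 2.85% and 2.22%, 5.99% and 4.66%, and 7.9% and 5.56% against the reference, 4.06% and 3.61% between double mutants and Irx3-/-;Irx5+/- hearts, and 1.5% and 2.13% between double mutants and Irx5-/- hearts. List medians in these 5 comparisons were 0.17, -0.05, -0.02, -0.05 and 0.01, against 0.00, -0.03, -0.03, -0.02 and 0.01 over all genes.

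Kcne3, a single-pass subunit that modifies several Kv channels, accounted for the largest of these. It read 7.97, 8.15 and 7.95 in the reference, 6.63, 6.99, 7.16 and 7.53 in Irx3-/-;Irx5+/- hearts, 7.28, 8.55 and 7.10 in Irx5-/- hearts and 8.03, 7.97, 8.88 and 7.78 in double mutants. Irx3-/-;Irx5+/- arrays lay below all arrays of the reference, as for 2.87% of all genes, and below all double mutants, as for 2.64%. Their difference from the reference was -0.95 ± 0.33 (SE, adjusted p = 0.887 in limma), and double mutants were 1.09 ± 0.31 above them (adjusted p = 0.465 in limma).

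Kcne1l, the older symbol of Kcne5 and a KCNE subunit gene, was higher in double mutants, though not past the threshold. The reference read 8.55, 8.71 and 8.58, Irx3-/-;Irx5+/- hearts 8.81, 8.92, 8.61 and 8.79, Irx5-/- hearts 8.79, 8.43 and 8.96, and double mutants 9.66, 8.89, 8.79 and 9.25. All 4 double mutants lay above the reference, as they did for 6.48% of all genes. The difference was 0.54 ± 0.18 (SE, adjusted p = 0.237 in limma).

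Relatives of the KChIPs among neuronal calcium sensors and the other repolarizing Kv genes had no gene with a p under 0.05 in any comparison. Of the sensors, 8 of 9 were measured. Guca1a, a guanylate cyclase activator, differed by 0.32 ± 0.19 (SE, adjusted p = 0.493 in limma) and Ncs1 by 0.33 ± 0.40 between double mutants and the reference. Of the genes for slow transient outward and delayed rectifier channels, 8 of 10 were measured. Kcnh2, the gene of the rapid delayed rectifier, differed by 0.28 ± 0.20 (SE, adjusted p = 0.572 in limma), and Kcna4, the pore gene of the slow transient outward current, by 0.43 ± 0.47 (adjusted p = 0.728). With the sarcomere mean as a term the Ncs1, Kcnh2 and Kcna4 differences were -0.46, -0.13 and -0.62. Single arrays also moved them: without reference replicate 1 Ncs1 was 0.75 and Kcna4 1.04, and without reference replicate 2 they were 0.0142 and 0.071. Without double mutant replicate 3, Guca1a was 0.17 and Kcnh2 0.18.

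Transcription factors and other regulators known to act on Kv4 genes or on the myocardium that expresses them were a list of 16, all measured. In double mutants against the reference, 6 were higher and 1 lower at an unadjusted p under 0.05. The lower one, Irx3, which is itself mutant in this group by label, was the only call. Over all genes 7.9% were higher and 5.56% lower by that rule, and 0.0201% were called. The list's median difference was 0.18, against -0.03 over all genes. In Irx3-/-;Irx5+/- hearts 2 were higher and 1 lower (all genes 2.85% and 2.22%), and in Irx5-/- hearts 2 and 2 (5.99% and 4.66%). Tbx20, a T-box factor of chamber myocardium, differed by 0.87 ± 0.17 (SE, adjusted p = 0.108 in limma) in double mutants, and Tbx3, a T-box factor of the conduction system, by 0.57 ± 0.14 (adjusted p = 0.140).

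Smyd1, a muscle-specific methyltransferase family protein, differed by 1.30 ± 0.37 (SE, adjusted p = 0.170 in limma) between double mutants and the reference. It was 0.18 with the sarcomere mean as a term, 0.81 without reference replicate 3 and 1.82 without replicate 1, where its adjusted p was 0.0465, the one setting in which it passed. Bmp10, a growth factor of trabecular myocardium, differed by 0.87 ± 0.29 in Irx3-/-;Irx5+/- hearts from the reference and by 1.08 ± 0.29 in double mutants from Irx5-/- hearts, with 0 calls. The first of these ran from 0.64 to 1.10 when single arrays were left out. Bmp10 group means, 6.05 to 7.13, lay inside the olfactory receptor span, and whether they were above background was not tested.

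**Figure D4:**
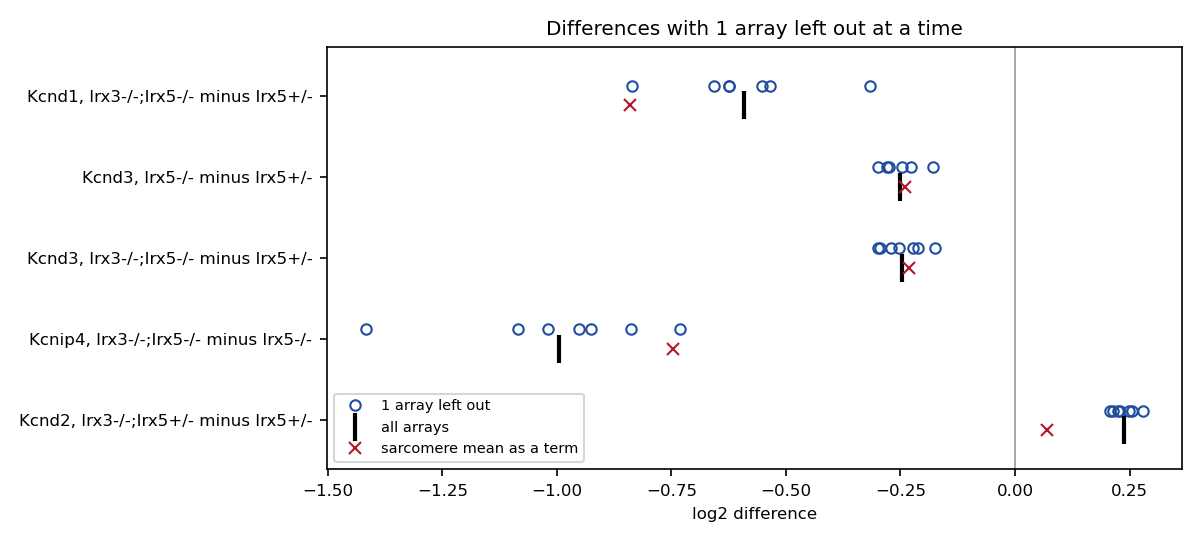
Log2 differences (horizontal axis) of the genes and comparisons named at the left, with a bar for all arrays, open circles with 1 array left out at a time and a cross with the sarcomere mean as a term. With 1 array left out, Kcnd1 in double mutants against the reference moves between -0.84 and -0.32. Kcnd3 in Irx5-/- hearts against the reference moves between -0.30 and -0.18.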

How the data were processed

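Heart RNA of 14 samples was amplified from 1 ng and hybridised to 1 array each, per the labels' protocols. The deposited values are log2 intensities that the authors made with RMA in the R package affy over all arrays, with a floor of 3 that at least 1 group mean of a probe set had to pass, per the file headers. The sources used here name no versions and no annotation build. Values were used without further scaling. Precision is limited by the number of arrays.

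Of 28763 probe sets, 21776 had exactly 1 gene symbol, 1592 several and 5395 none, and 21685 of the first matched a reference gene by ID. The probe set with the highest mean was kept for each of 19931 genes. Array medians ran from 7.89 to 7.99.

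Differences came from limma 3.58.1 (R 4.3.3), fitted to group means of the 14 arrays together with 10 residual and 3.50 prior degrees of freedom, and 2-sided p-values adjusted by Benjamini-Hochberg over all 19931 genes (threshold 0.05). The script was tested on simulated data. Correlations used 100000 permutations. Genes named were all 7 members, up to 4 genes of each list with p under 0.05 (otherwise the 2 with the smallest p), and the 3 genes most like each member. Members and lists were chosen with earlier results of these data known.

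Replicate numbers are shared between groups. Residuals of same-numbered arrays correlated at -0.18 to 0.19 over 19 pairs (median -0.06, 4 over 0.1). Those of differently numbered arrays correlated at -0.35 to 0.30 over 54 pairs (median 0.02, 13 over 0.1). The numbers were therefore treated as names. Alternatives were the replicate block, the sarcomere mean or Xist level as a term, centring on array medians, the conflicting array grouped by description, a trended robust prior, the compared groups alone, dim genes left out, probe sets averaged, and each array left out.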

Additional observations from a re-analysis of the deposited data

Results flagged for a closer look

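Among the 7 genes in the groups of 4 arrays, 14 sets of values in all, 1 held an array far from its others. Kcnip4 read 8.98 in Irx3-/-;Irx5+/- replicate 3, while the other 3 arrays of that group read 7.53 to 7.61. The gap was 0.94 of the group's range, above Dixon's 95% critical value for 4 values. Chance alone marks about 1 in 20 groups. The Kcnip4 difference between double mutants and this group was -0.84 with that array and -0.48 without it.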

How the results depend on the processing

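Of the 7 members, 0 were called in all 184 combinations of comparison and alternative, and 700 of 737 member differences kept their direction and side of the threshold. The other 37 turned direction, and the cause was not tested. These member differences cover every member against the reference and in the averages with Irx5 or Irx3 loss. Among the remaining comparisons and the interaction, only chosen differences of Kcnd2, Kcnd3 and Kcnip4 were refitted. With the sarcomere mean as a term, the Kcnd2 difference from the reference was -0.17 in Irx5-/- hearts and -0.21 in double mutants, and those of Kcnip3 and Kcnip4 in double mutants were 0.20 and 0.46. In that fit Kcnip4 averaged 0.32 for Irx5 loss, Kcnip3 and Kcnip4 averaged 0.0275 and 0.14 for Irx3 loss, and Ncs1, Kcnh2 and Kcna4 were -0.46, -0.13 and -0.62. With the replicate block, Kcnd2 in double mutants was -0.0588 and the count of members called stayed at 0 in every comparison. Centring on array medians gave -0.0085 for Kcnip2 in Irx3-/-;Irx5+/- hearts and 0.0201 for its average with Irx5 loss. With the conflicting array grouped by description, Kcnd3 in Irx5-/- against Irx3-/-;Irx5+/- hearts was 0.0049. Leaving out single arrays gave, for Irx3-/-;Irx5+/- against the reference, -0.0491 to 0.0719 (Kcnip1), -0.0332 to 0.0459 (Kcnip2), -0.093 to 0.17 (Kcnip3) and -0.15 to 0.83 (Kcnip4). For Irx5-/- it gave -0.20 to 0.14 (Kcnd2), -0.28 to 0.0115 (Kcnip1) and -0.0139 to 0.18 (Kcnip2), and for double mutants -0.13 to 0.16 (Kcnd2), -0.13 to 0.0012 (Kcnip1) and -0.19 to 0.0544 (Kcnip3). Averages with Irx5 loss ran from -0.0638 to 0.0387 (Kcnip2), -0.0274 to 0.10 (Kcnip3) and -0.41 to 0.0783 (Kcnip4), and with Irx3 loss from -0.0226 to 0.12 (Kcnip1). The correlation with the sarcomere mean ran from -0.21 to 0.0525 for Kcnip2 and from -0.77 to -0.44 for Kcnip4, which passed the threshold without reference replicate 3. The filter on dim genes left 14948 genes and 6 of the 7 members, without Kcnip1. The Irx3 call in double mutants was lost with the replicate block (adjusted p = 0.153 in limma), the sarcomere term (0.166) and the compared groups alone (0.0759), as well as in 4 fits that left out 1 array. With 3 or 4 arrays per group, 95% intervals of single comparisons with the reference reached 0.22 to 1.05 on either side (log2). Differences smaller than a gene's own interval reach could not be told from 0. The intervals are not adjusted for the number of genes, so larger differences could also miss the threshold. Kcnd1 in double mutants did so, at -0.59 with an interval from -1.01 to -0.17 (adjusted p = 0.216 in limma).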
